A study of Mus musculus with 9 samples.

Results

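The oxidative phosphorylation genes examined here encode nuclear subunits of the 5 complexes that carry out mitochondrial respiration and ATP synthesis. They were chosen with earlier results of these data known, but by symbol and not by a cut on any measured value. The set holds the numbered genes of the Nduf a, b, c, s and v series with Ndufab1, Sdha to Sdhd, the Uqcr genes and Cyc1, the lettered Cox4 to Cox8 genes, and the Atp5 genes. Of 18193 genes with a probe set of 1 annotated symbol, 82 were members, and 79 of these were among the 12941 genes that passed a filter on low signal and were tested. The members were 35 complex I genes, 4 of complex II, 9 of complex III, 17 of complex IV and 17 of complex V, grouped by symbol. RNA was measured in mouse small intestinal organoids, closed epithelial cultures that contain stem cells and their differentiating progeny, on the Affymetrix Mouse Genome 430 2.0 array. The 9 arrays were 3 of organoids given no treatment, 3 given an inhibitor of the TGF-beta receptors 1 and 2 at 20 uM, and 3 given the ligand TGF-beta1 at 0.04 ng/mL, with treatment for 5 days from day 1 of a 6-day culture. The compound, any vehicle, and the strain, age and genotype of the mice are not given in the labels used here. Since nothing says that the triplicates were separate cultures or animals, each p-value reflects array-to-array spread that may be technical.

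In the inner mitochondrial membrane, complex I takes electrons from NADH and complex II takes them from succinate. Complex III passes them through cytochrome c to complex IV, which reduces oxygen, and the proton gradient built on the way drives complex V, the ATP synthase. Most subunits are encoded in the nucleus, and a few in mitochondrial DNA. In the intestinal crypt both dividing stem cells and absorptive cells depend on mitochondria, and several complex IV subunits exist as isoforms that are common to all tissues or restricted to heart and muscle, lung or testis.

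Signals are MAS5 values on a linear scale, listed for arrays 1, 2 and 3 of a group in that order, and log2 changes are differences of log2(signal + 16) with their SE, n = 3 arrays in each group. The words called, rose and fell are used where limma's Benjamini-Hochberg adjusted p over all 12941 genes was under 0.05. Of the 79 tested members 73 had a mean untreated signal of 1012 or more and 5 a mean under 300, with a median over members of 6243. Levels are not ranked between genes, because probe sets differ in their response. The 3 members not tested lay about or below the filter level, which was a signal of 25.9 to 32.0 on the arrays. Ndufb4, an accessory subunit of complex I, was represented by a probe set with signals of 10.7 to 31.6. Cox7b2, the testis isoform of subunit 7b, had signals of 1.28 to 15.2, and Cox8b, a heart and muscle isoform, of 1.33 to 4.57. Cox4i2, the lung isoform of subunit 4, passed the filter on 5 arrays with signals of 2.75 to 40.7, so its group differences are those of a probe set at background.

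The members moved together from array to array also within a group. Their median signal was 6058, 6652 and 5999 on the untreated arrays, 5628, 6276 and 6049.9 on the inhibitor arrays and 5118, 5209.8 and 5931 on the ligand arrays. Untreated array 2 held the highest value of its group in 65 of the 79 members, inhibitor array 2 in 59 and ligand array 3 in 62, while inhibitor array 1 was lowest in 60. Array medians over all probe sets were 46.1 to 57.9 and the trimmed mean was 350.002 on each array. The 3 prime to 5 prime log2 ratio of the beta-actin control probe sets, a measure of RNA and labelling quality, was 0.370 to 0.433 in untreated, 0.179 to 0.238 in inhibitor and 0.397 to 0.581 in ligand arrays, highest on ligand array 3. The same ratio of the Gapdh control was -0.292 to -0.252 over all 9 arrays, with overlapping groups. The part of these differences in the results below was not tested. Median centring subtracts, from each log2 value defined above, the median of these log2 values over all probe sets of the array. It shifts every log2 change by 0.04 for inhibitor against untreated and by -0.11 for ligand against untreated. For ligand against inhibitor the shift is -0.16. The median size of the members' changes on the deposited scale was 0.12, 0.17 and 0.11 in the same order. Calls over all members are therefore counted on the deposited scale and on this median-centred scale. Some counts by complex are given on the deposited scale only.

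**Figure D1:**
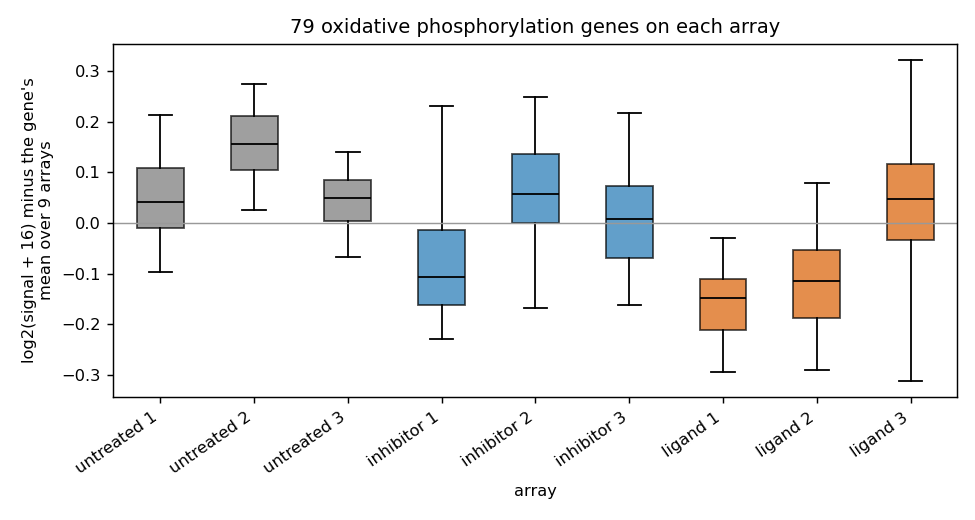
Distribution over the 79 tested genes of log2(signal + 16) minus the gene's mean over the 9 arrays, for each array (box: quartiles and median; whiskers: 5th to 95th percentile; grey untreated, blue inhibitor, orange ligand). Untreated array 2 sits above the other untreated arrays and ligand array 3 above the other ligand arrays.

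Promoter windows were searched for motifs, which the choice by symbol did not decide, and none of the motifs lay in most member windows. RefSeq windows on GRCm38.p6, 250 bases before to 50 after a gene's start, were found for 67 of the 82 members, as 72 windows, and were set beside all 32851 windows of the table. The motif of nuclear respiratory factor 1, an activator of many respiratory genes, was searched on both strands as GCGC and TGCGC with any 1 base between them and lay in 16 member windows, 22.2%, against 4.6% of all windows and 6.38% of the 21263 windows of protein-coding genes. The ETS motif CCGGAAG, bound by GABPA (nuclear respiratory factor 2), was found in 17 member windows, 23.6%, against 8.86% of all and 11.6% of protein-coding ones. The motif AAGATGGCG of the factor YY1 was in 6 member windows, 8.33%, against 1.4% of all and 1.83% of protein-coding ones. The cyclic AMP response element TGACGTCA was in 3, 4.17% against 1.79%, and TATAAA, the TATA box, in 9, 12.5% against 13.6%. None of these motifs contains another, though the ETS and YY1 motifs can share the letters AAG, and a match is a description of the sequence only.

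The windows of 5 members that the comparisons below turn on are printed 5′ to 3′ on the gene's strand. They show the nuclear respiratory factor 1, ETS and YY1 motifs, and 2 isoform genes without them. Capitals mark the motif. Ndufs5 (chr4:123718137-123718436, minus strand) holds the nuclear respiratory factor 1 motif, read from the other strand, at base 153, Ndufs7 (chr10:80249199-80249498, plus strand) the YY1 motif at base 275, and Sdhb (chr4:140961021-140961320, plus strand) the ETS motif at base 257. Ndufs7 also holds TATAAA. Cox6b2 (chr7:4753045-4753344, minus strand) and Cox7a1 (chr7:30183921-30184220, plus strand) hold none of the 5 motifs in these windows. The windows of the complex I genes Ndufb10 and Ndufv3, not printed, hold none of the 5 either, so a window without them is not particular to isoform genes.
Ndufs5: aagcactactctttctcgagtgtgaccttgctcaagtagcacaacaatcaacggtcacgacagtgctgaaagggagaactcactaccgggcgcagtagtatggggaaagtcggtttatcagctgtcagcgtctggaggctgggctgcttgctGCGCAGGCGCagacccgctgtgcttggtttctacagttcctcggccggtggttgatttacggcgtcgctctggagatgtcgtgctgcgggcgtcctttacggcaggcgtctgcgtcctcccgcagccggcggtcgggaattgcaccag
Ndufs7: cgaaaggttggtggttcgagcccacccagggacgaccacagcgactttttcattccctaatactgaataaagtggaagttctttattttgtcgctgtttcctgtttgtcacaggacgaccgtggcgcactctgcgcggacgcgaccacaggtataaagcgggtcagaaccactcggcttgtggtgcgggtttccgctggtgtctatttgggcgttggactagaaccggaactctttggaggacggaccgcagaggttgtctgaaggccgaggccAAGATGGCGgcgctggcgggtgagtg
Sdhb: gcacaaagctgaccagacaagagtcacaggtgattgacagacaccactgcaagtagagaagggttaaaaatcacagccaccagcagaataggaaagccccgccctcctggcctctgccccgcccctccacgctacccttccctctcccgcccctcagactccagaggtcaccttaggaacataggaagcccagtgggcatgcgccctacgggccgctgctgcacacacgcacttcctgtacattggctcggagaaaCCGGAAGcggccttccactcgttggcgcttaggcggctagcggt
Cox6b2: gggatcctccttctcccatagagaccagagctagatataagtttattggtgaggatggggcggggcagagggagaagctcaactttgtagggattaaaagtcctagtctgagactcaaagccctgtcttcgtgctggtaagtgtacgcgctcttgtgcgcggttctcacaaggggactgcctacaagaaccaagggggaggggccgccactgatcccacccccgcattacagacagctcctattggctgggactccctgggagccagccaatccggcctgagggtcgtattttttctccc
Cox7a1: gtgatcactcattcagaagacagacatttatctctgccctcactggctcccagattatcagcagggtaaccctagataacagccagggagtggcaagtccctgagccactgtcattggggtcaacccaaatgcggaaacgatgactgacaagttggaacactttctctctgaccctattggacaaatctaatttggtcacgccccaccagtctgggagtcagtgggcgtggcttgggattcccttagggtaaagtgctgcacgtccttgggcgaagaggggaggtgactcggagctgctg

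With the receptor inhibitor most members were slightly below untreated, and 3 rose. Of the 79 tested members 14 fell and 3 rose, so 21.5% were called against a background of 44.9% of all genes (21.1% higher, 23.8% lower). The median log2 change of the members was -0.08, against -0.01 for all genes, and 64 members had a change below 0 (81%, against 51.1% of all genes). In 30 members, 38%, no inhibitor value lay within the range of the untreated ones or the reverse, that is, the groups did not overlap, against 55.9% of all genes. With a change of at least 1.5-fold 1 member was called, the testis isoform Cox6b2 (1.27%, against 17.5% of all genes). After median centring 2 members were lower and 4 higher, 7.59% of members against 41.3% of all genes (21.9% higher, 19.3% lower), and the members' median was -0.03 against 0.03 for all genes, with 49 members below 0 (62%, against 46.3%). The groups then did not overlap in 21 members, 26.6% against 52.9%, and Cox6b2 stayed the 1 call of at least 1.5-fold, against 17.6%. Of the 14 falls those of Ndufs7 and Cox7c passed after centring. The count of falls was 3 without untreated array 2, 4 without inhibitor 3, 7 without inhibitor 2, and 8 without untreated 1 or inhibitor 1. In these bulk samples fewer cells of a type and less RNA per cell cannot be told apart.

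**Figure D2:**
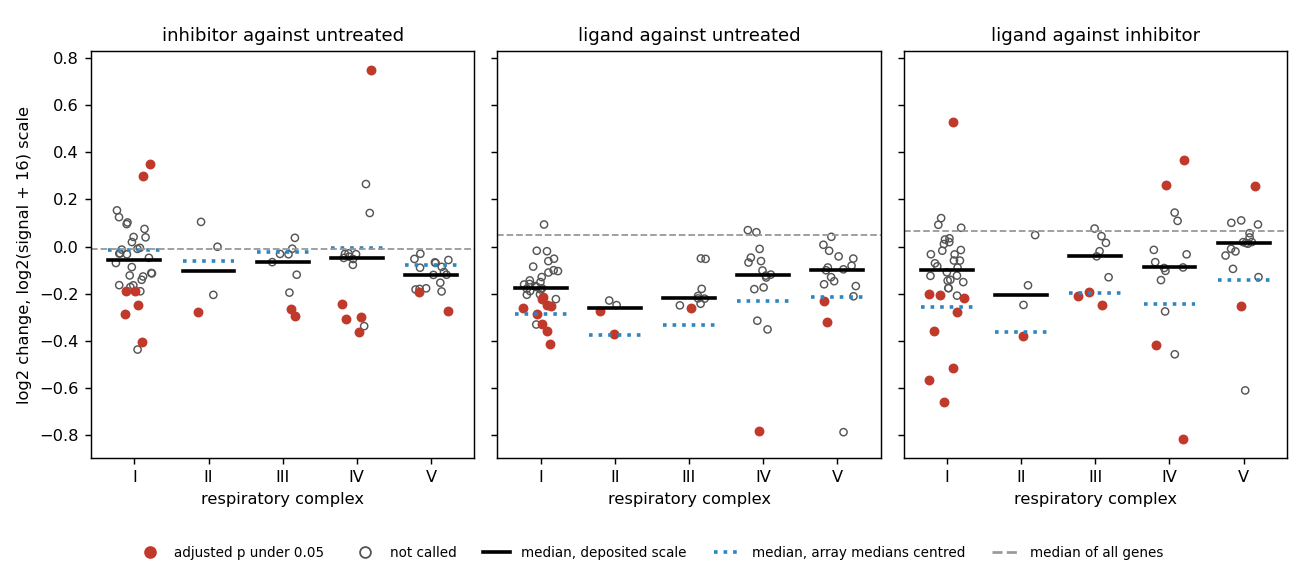
Log2 change of each tested gene by respiratory complex in the 3 comparisons (filled: adjusted p under 0.05; open: not called; black bar: median on the deposited scale; dotted bar: median after array median centring; dashed line: median of all 12941 genes). The ligand points of complexes I, II and III lie mostly between -0.3 and 0, while the inhibitor points scatter closer to 0 with Cox6b2 at 0.75.

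In complex I, 5 of 34 tested subunits fell under the inhibitor and 2 rose, with a median change of -0.06 (-0.02 centred). Ndufs7 carries an iron-sulfur cluster next to the quinone site. Its signal was 5047, 5177 and 4571 in untreated and 3531, 3731 and 3884 in inhibitor arrays. All 3 inhibitor values lay below all untreated ones, a log2 change of -0.41 ± 0.08 (adjusted p 0.000864), and the adjusted p was 0.000111 to 0.0172 over the alternatives, with -0.36 after centring. Ndufv3, a small subunit of the NADH-oxidising module, went the other way. It had signals of 5444, 6005 and 5527 in untreated and 6482, 7799.6 and 7410.2 in inhibitor arrays, a log2 change of 0.35 ± 0.09 (adjusted p 0.00521). The groups did not overlap, and the call held in all 21 alternatives. Ndufb10, an accessory subunit of the membrane arm, also rose, from 4027, 3666 and 3527 to 4473, 4596 and 4746, a log2 change of 0.30 ± 0.09 (adjusted p 0.0193). This rise was not called without untreated 2 or 3 or inhibitor 3 (adjusted p 0.00342 to 0.0749 over the alternatives). Ndufs1, the largest iron-sulfur subunit of the NADH module, had signals of 2839, 2946 and 2799.6 and 2315, 2466 and 2448, with no overlap and a log2 change of -0.25 ± 0.07 (adjusted p 0.0115). It did not pass after centring (adjusted p 0.129). Ndufa10, a membrane-arm accessory subunit, had a log2 change of -0.28 ± 0.08 (adjusted p 0.0115), lost without untreated 2, under median centring or with the mean of probe sets (adjusted p 0.000316 to 0.927 over the alternatives). The mean of its 2 probe sets changed by -0.01, so the dimmer probe set did not share the fall. The accessory subunits Ndufb2 (-0.19 ± 0.07) and Ndufa9 (-0.19 ± 0.07) were the other called falls.

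Of the 4 subunits of complex II, Sdha fell under the inhibitor. Sdha, the flavoprotein that oxidises succinate, had signals of 6056, 6676 and 5999 in untreated and 4999, 5415 and 5022 in inhibitor arrays. The groups did not overlap, with a log2 change of -0.28 ± 0.08 (adjusted p 0.0166), and the call was lost without untreated 2, inhibitor 1 or 3 or under median centring (adjusted p 0.0016 to 0.141 over the alternatives). Sdhb, its iron-sulfur partner, had 6482, 7508 and 6637 against 5952, 6009 and 5893, and its difference of -0.20 ± 0.08 missed the threshold (adjusted p 0.0655). The membrane anchors Sdhc and Sdhd had changes of 0.10 ± 0.06 (adjusted p 0.213) and -0.00 ± 0.11 (adjusted p 0.996). In complex III 2 of 9 members fell, Uqcrc2 and Cyc1, with a median of -0.07. Uqcrc2, a core subunit that faces the matrix, had signals of 8336, 8997 and 8261 and 6736, 7335 and 6762, a log2 change of -0.30 ± 0.09 (adjusted p 0.0136). Cyc1 is cytochrome c1, the haem subunit that hands electrons to cytochrome c. Its signals were 8596, 9316 and 8732 in untreated and 6806, 7818 and 7569.9 in inhibitor arrays, a log2 change of -0.26 ± 0.09 (adjusted p 0.0247). For both genes the groups did not overlap. The call on Uqcrc2 was lost without untreated 2, inhibitor 3 or under median centring (adjusted p 0.000438 to 0.122 over the alternatives), and that on Cyc1 without untreated 2 or 3, inhibitor 1 or 3 or under median centring (adjusted p 0.000443 to 0.187 over the alternatives).

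In complex IV the inhibitor raised 1 of 15 tested members and lowered 4 (2 higher and 1 lower after centring). Cox6b2, the testis isoform of subunit 6b, rose from signals of 119, 142 and 122 to 212, 259 and 207, 1.68-fold, with a log2 change of 0.75 ± 0.12 (adjusted p 0.000209). All inhibitor arrays exceeded all untreated ones, and the adjusted p was 0.000105 to 0.00156 over the alternatives. Its common counterpart Cox6b1 had a change of -0.04 ± 0.09 (adjusted p 0.742), with signals of 12516, 13757 and 12767 in untreated and 11576, 13705 and 12677 in inhibitor arrays. Cox7c, a small membrane subunit, fell from 811, 772 and 775 to 647, 579 and 672, a log2 change of -0.31 ± 0.07 (adjusted p 0.00421), with no overlap and adjusted p of 0.00282 to 0.0328 over the alternatives. Cox7a1, the heart and muscle isoform of subunit 7a, had signals of 1155, 1108 and 773 in untreated and 787, 763 and 763 in inhibitor arrays. Untreated array 3 lay among the inhibitor values, so the groups overlapped, with a log2 change of -0.36 ± 0.13 (adjusted p 0.0305). This call was lost without untreated 1 or 2, inhibitor 1, 2 or 3, under median centring, with no filter or with no intensity trend (adjusted p 0.00038 to 0.135 over the alternatives). Cox7a2l, which joins complexes III and IV into supercomplexes, fell from 4574, 4879.7 and 4481 to 3802, 3664 and 3861, a log2 change of -0.30 ± 0.10 (adjusted p 0.0311). The call on Cox7a2l was lost without untreated 1 or 2, inhibitor 1, 2 or 3, under median centring, with no filter or with no intensity trend (adjusted p 0.000898 to 0.135 over the alternatives). Cox4i1, the common form of the large nuclear subunit 4, had a log2 change of -0.25 ± 0.09 (adjusted p 0.0467), lost without untreated 1, 2 or 3, inhibitor 1, 2 or 3, ligand 2, under median centring, with no filter, with no intensity trend or with probe sets fitted singly (adjusted p 0.0192 to 0.263 over the alternatives).

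The remaining isoforms were not called under the inhibitor. Cox4i2 had a change of 0.14 ± 0.33 (adjusted p 0.763). The heart and muscle isoform Cox6a2 had -0.34 ± 0.17 (adjusted p 0.129), with signals of 95.7, 98.4 and 103 against 75.2, 78.5 and 71.7 and no overlap, and the common Cox6a1 had -0.05 ± 0.15 (adjusted p 0.828). Cox8c, the testis isoform of subunit 8, had 205, 182 and 197 against 264, 245 and 204, a change of 0.27 ± 0.12 (adjusted p 0.0928). It passed after centring, with 0.31 and adjusted p 0.0405. The common isoforms Cox7a2 (-0.05 ± 0.11, adjusted p 0.733) and Cox8a (-0.03 ± 0.10, adjusted p 0.825) were not called. Ndufa4, counted with complex I by its symbol but known as a subunit of complex IV, had 0.04 ± 0.11 (adjusted p 0.799). Ndufab1, the mitochondrial acyl carrier protein, had -0.09 ± 0.09 (adjusted p 0.45).

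All 17 complex V members had a change below 0 under the inhibitor on the deposited scale, and 2 of them fell. After centring 16 were below 0 and neither fall passed. Both called genes encode subunit c, the ring that rotates in the membrane. Atp5g2 had signals of 5027, 5969 and 5280.3 in untreated and 4386, 4519.8 and 4510.4 in inhibitor arrays, a log2 change of -0.27 ± 0.09 (adjusted p 0.0237). Atp5g1 had 4098, 4183 and 4067 and 3713, 3565 and 3507, a log2 change of -0.19 ± 0.07 (adjusted p 0.0345). Neither gene overlapped between the groups. Atp5g2 lost its call without untreated 2, inhibitor 1, 2 or 3 or under median centring (adjusted p 0.000319 to 0.144 over the alternatives). Atp5g1 lost its call without untreated 1, 2 or 3, inhibitor 2 or 3, under median centring or with no intensity trend (adjusted p 0.0105 to 0.253 over the alternatives). The third gene of the same subunit, Atp5g3, had a change of -0.07 ± 0.14 (adjusted p 0.725), with overlapping groups.

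**Figure D3:**
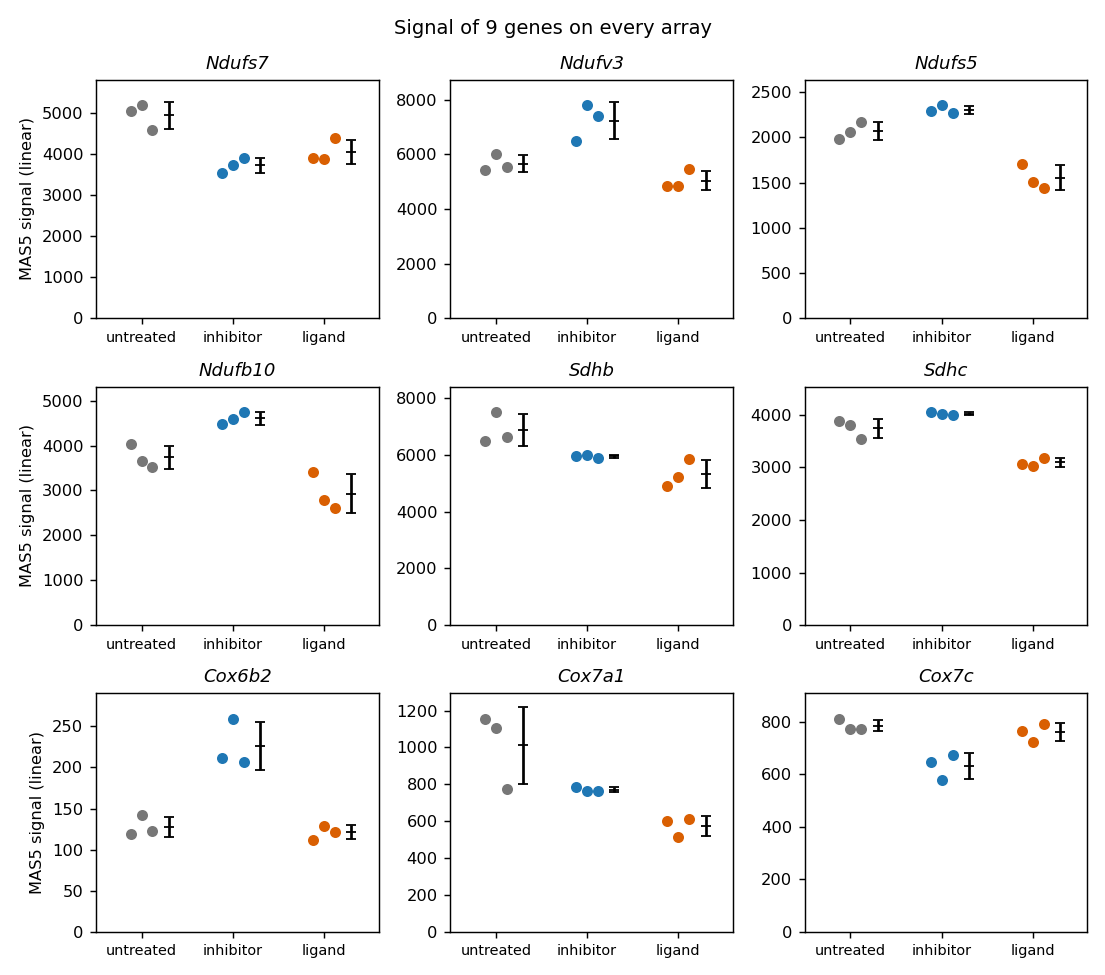
MAS5 signal (linear, axes from 0) of 9 genes on each of the 9 arrays, with the group mean and SD beside the points. Ndufb10 and Ndufv3 are highest in inhibitor arrays, Ndufs7 and Cox7c are lower there than in untreated arrays, Ndufs5, Sdhb, Sdhc and Cox7a1 are lowest in ligand arrays, and Cox6b2 is higher in inhibitor arrays than in both other groups.

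With the ligand the members lay below untreated across the complexes, by a small amount. Of the 79 tested members 15 fell and 0 rose by limma, 19% against a background of 24% of all genes called (14.7% higher, 9.3% lower). At an unadjusted p under 0.05, 28 members were lower and 0 higher, 35.4% lower against 13.5% of all genes lower and 21.9% higher. The median log2 change was -0.17, against 0.05 for all genes, and 74 of 79 members had a change below 0 (93.7%, against 41.8% of all genes). In 32 members, 40.5%, the groups did not overlap, against 38.6% of all genes, and after centring in 34, against 33.8%. A change of at least 1.5-fold was called in 1 member, Cox7a1 (1.27%, against 8.62% of all genes), and after centring in 2 (2.53%, against 8.17%). After median centring 18 members were lower and 0 higher (22.8%, against 20.9% of all genes called, 7.6% higher and 13.3% lower), the median was -0.28 against -0.06 for all genes, and all 79 changes were below 0, against 59.9% of all genes. At an unadjusted p under 0.05, 42 members were then lower and 0 higher, 53.2% lower against 20.9% of all genes lower and 11.7% higher. Bright genes as a whole leaned the same way: of the 1294 brightest genes, which include 67 of the members, 18% were lower and 4.33% higher with the ligand, with a median of -0.06, and 21.1% were lower after centring, with a median of -0.17. Leaving out single arrays moved the number of members that fell from 15 to 6 (untreated 2), 8 (untreated 1 or ligand 1) or 32 (ligand 3). All 15 called members had groups that did not overlap, which is read from the same values as the calls. All 15 kept the call after centring, but centring moves every change here by -0.11 and so enlarges each fall. Neither is separate support for the calls.

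Complex I, with 34 of the 79 tested members, held 9 of the 15 called members. Ndufs5, an accessory subunit of the intermembrane face, had signals of 1978, 2063 and 2169.7 in untreated and 1709.7, 1503 and 1446 in ligand arrays, a log2 change of -0.41 ± 0.07 (adjusted p 0.00121). It kept its call in all 21 alternatives (adjusted p 0.000617 to 0.00732). Ndufb10 had 4027, 3666 and 3527 against 3409, 2783 and 2602, a log2 change of -0.36 ± 0.09 (adjusted p 0.0146), lost without untreated 1 or ligand 2 (adjusted p 0.00196 to 0.0689 over the alternatives). Ndufa6, an accessory subunit of the matrix arm that binds the acyl carrier protein, fell from 8545, 9236 and 8643 to 6600.3, 6944 and 7489, a log2 change of -0.33 ± 0.08 (adjusted p 0.00882), and was called in all 21 alternatives. In each of the 3 genes the ligand arrays lay wholly below the untreated ones. Ndufs7, Ndufs1, Ndufc1, Ndufa9, Ndufb2 and Ndufb3 also fell, with changes between -0.29 and -0.21. Ndufab1 (-0.17 ± 0.09, adjusted p 0.179) and Ndufa4 (-0.11 ± 0.11, adjusted p 0.534) were not called. The median of the 34 complex I genes was -0.17, and -0.29 after centring, when 10 were lower.

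Of complex II, Sdhb and Sdhc fell with the ligand, and the medians of its 4 genes were -0.26 and, centred, -0.37. Sdhb had signals of 6482, 7508 and 6637 in untreated and 4897, 5214 and 5860.5 in ligand arrays, a log2 change of -0.37 ± 0.08 (adjusted p 0.00665), and was called in all 21 alternatives. Sdhc had 3876, 3818 and 3543 against 3068, 3030.3 and 3187, a log2 change of -0.27 ± 0.06 (adjusted p 0.00807). It lost its call with the mean of probe sets (adjusted p 0.00517 to 0.173 over the alternatives), where a dimmer probe set with a change of -0.05 is averaged in. Sdha and Sdhd were not called. Sdha had signals of 5118, 4951 and 5941 in ligand arrays, a change of -0.23 ± 0.08 (adjusted p 0.0673), and Sdhd had 4762, 5071 and 4652 against 3558, 3886 and 4838, -0.25 ± 0.11 (adjusted p 0.118). For both, ligand array 3 was the highest of its group, and without it both passed, at changes of -0.31 and -0.37.

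In complex III all 9 members were below untreated with the ligand, with a median of -0.22, and 1 was called. Uqcr10, a small accessory subunit, had signals of 3980.5, 4209.7 and 3924 in untreated and 3171, 3334 and 3618 in ligand arrays, a log2 change of -0.26 ± 0.07 (adjusted p 0.0173), lost without untreated 2 or ligand 1 (adjusted p 0.00424 to 0.0763 over the alternatives). Cyc1, with 7317, 7171 and 8413 in ligand arrays, was at -0.22 ± 0.09 (adjusted p 0.0848), and was called when ligand array 3 was left out (-0.29). Uqcrfs1, the Rieske iron-sulfur protein, had -0.24 ± 0.08 (adjusted p 0.0545) and was lower after centring (adjusted p 0.049).

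Complex IV had the largest fall of all called members, in the isoform Cox7a1. Its signal was 1155, 1108 and 773 in untreated and 602, 512 and 610.2 in ligand arrays, a log2 change of -0.78 ± 0.13 (adjusted p 0.000575), or 0.58-fold. Every ligand array lay below every untreated array, and the adjusted p was 1.06e-05 to 0.0056 over the alternatives. The common isoform Cox7a2 had 15171, 17167 and 16083 against 13686, 14246 and 16778, a change of -0.12 ± 0.11 (adjusted p 0.486), with overlapping groups. The other 14 tested members of complex IV were not called. Cox6b2 had 112, 129 and 122 in ligand arrays, a change of -0.07 ± 0.12 (adjusted p 0.742), and Cox6b1 of -0.13 ± 0.09 (adjusted p 0.341). Cox6a2 had -0.35 ± 0.17 (adjusted p 0.163) and Cox6a1 0.06 ± 0.15 (adjusted p 0.82), with ligand array 3 of Cox6a1 at 16405 above the other 8 arrays. Cox8a (-0.17 ± 0.10, adjusted p 0.229), Cox8c (-0.01 ± 0.12, adjusted p 0.963), Cox4i1 (-0.10 ± 0.09, adjusted p 0.482), Cox4i2 (-0.31 ± 0.33, adjusted p 0.551) and Cox7a2l (0.07 ± 0.10, adjusted p 0.684) were not called either.

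In complex V 2 of 17 members fell with the ligand, with a median of -0.10 (3 lower and a median of -0.21 after centring). Atp5h, subunit d of the peripheral stalk, had signals of 8647, 9746 and 8789.6 in untreated and 7592, 7516 and 6662 in ligand arrays, a log2 change of -0.32 ± 0.09 (adjusted p 0.0172), lost without untreated 2 or with the mean of probe sets (adjusted p 0.0129 to 0.0812 over the alternatives). Atp5g1 fell from 4098, 4183 and 4067 to 3261, 3529.9 and 3726, a log2 change of -0.23 ± 0.07 (adjusted p 0.026), lost without untreated 1, 2 or 3, ligand 1 or 2, under quantile normalization or in the 2-group fit (adjusted p 0.00773 to 0.111 over the alternatives). Ligand array 3 stood apart in both directions here. Atp5g3 had 11182, 12339 and 16908 in ligand arrays, the highest of all 9 arrays on ligand array 3, with a change of 0.04 ± 0.14 (adjusted p 0.867). Atp5md, a small subunit of the membrane part named here after its values were seen, had 5715, 4823 and 4483 against 3901, 3896 and 1569. Its change of -0.79 ± 0.30 is the lowest of all members and did not pass on the deposited scale (adjusted p 0.0714), but did after centring (adjusted p 0.0178).

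**Figure D4:**
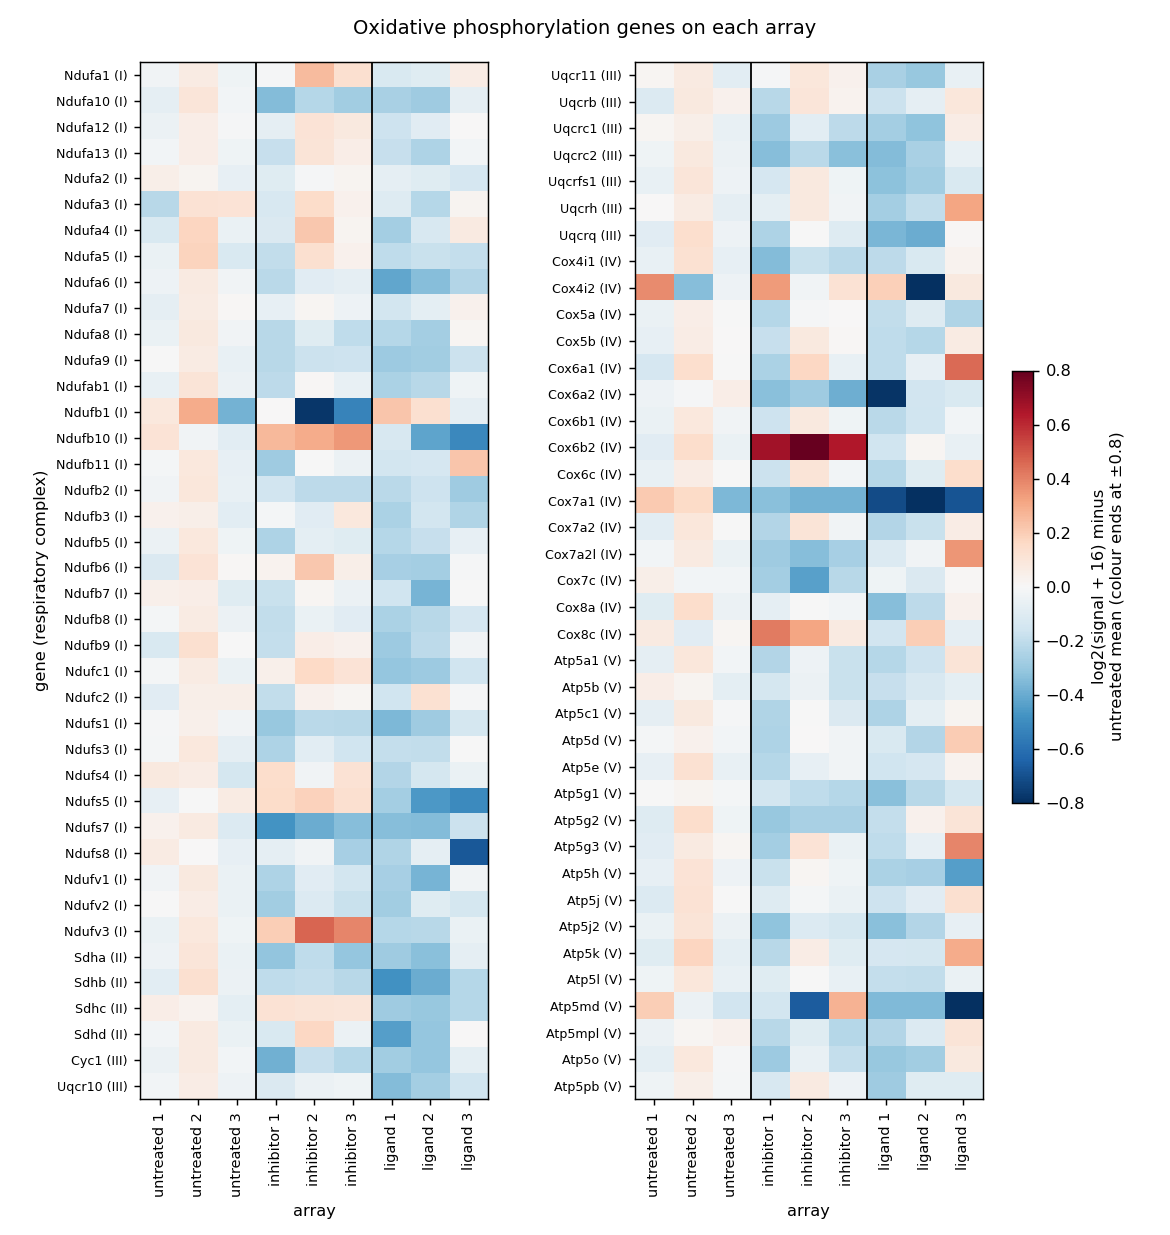
Log2(signal + 16) of each of the 79 tested genes on each array, minus the gene's mean over the 3 untreated arrays (red higher, blue lower, colour ends at ±0.8; the complex stands in brackets). Ligand arrays 1 and 2 are pale blue in most rows and ligand array 3 is nearer to white, while the inhibitor arrays hold both colours, with Cox6b2 the deepest red.

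The comparison of ligand with inhibitor tests the difference between the 2 treatments directly, and shares its arrays with the other comparisons. Of 79 members 15 were lower with the ligand and 4 higher, 24.1% against a background of 55.3% of all genes (32.4% higher, 22.8% lower). The median change of the members was -0.07, against 0.07 for all genes, and 53 members were below 0 (67.1%, against 44.5% of all genes). The groups did not overlap in 18 members, 22.8%, against 60.5% of all genes, and after centring in 24, 30.4% against 58.9%. Cox6b2 and Ndufb10 were called with at least 1.5-fold, 2.53% of members against 26.9% of all genes, and after centring 5 members, 6.33% against 27.5%. After centring 22 members were lower and 0 higher, 27.8% against 52.7% of all genes called (22% higher, 30.7% lower), with a median of -0.22 against -0.09 for all genes, and 75 members were below 0 (94.9%, against 57.3% of all genes). At an unadjusted p under 0.05, 32 were then lower and 0 higher, 40.5% lower against 33.7% of all genes lower and 24% higher. On the deposited scale 17 of the 79 members were lower and 4 higher at this p. The share of all genes at this p was not counted there. It is at least the 22.8% lower and 32.4% higher called at the adjusted p. Bright genes leaned lower here too. Of the 1294 brightest genes, which include 67 of the members, 33.5% were lower and 22.8% higher, with a median of -0.06. After centring 41.5% of these bright genes were lower, with a median of -0.21, close to that of the members. The number of lower members ranged from 9 (without inhibitor 3 or ligand 1) to 21 (without ligand 3). The number of higher members fell to 1 without inhibitor 2 and to 2 without inhibitor 3 or ligand 2.

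Of the members called lower with the ligand than with the inhibitor, Cox6b2 and 3 complex I genes had the largest differences. Cox6b2 had signals of 212, 259 and 207 with the inhibitor and 112, 129 and 122 with the ligand, a log2 change of -0.82 ± 0.12 (adjusted p 6.36e-05). Ndufb10 had 4473, 4596 and 4746 and 3409, 2783 and 2602, a log2 change of -0.66 ± 0.09 (adjusted p 5.18e-05). It was called on both sides of untreated, and the values of its 3 groups did not overlap at all. Ndufs5 had 2289, 2355 and 2267 and 1709.7, 1503 and 1446, a log2 change of -0.57 ± 0.07 (adjusted p 2.09e-05), and Ndufv3 had 6482, 7799.6 and 7410.2 and 4827, 4838 and 5459, a log2 change of -0.52 ± 0.09 (adjusted p 0.000209). These 4 calls, with those of Sdhc and Ndufc1, held in all 21 alternatives. Atp5md had a change of -0.61 ± 0.30 and was not called (adjusted p 0.0984). Sdhc had a log2 change of -0.38 ± 0.06 (adjusted p 0.000236) and the membrane-arm subunit Ndufc1 a log2 change of -0.36 ± 0.08 (adjusted p 0.00147), again with no overlap. Ndufb6, Ndufs4, Ndufb3 and Ndufa6 were lower too, with changes between -0.28 and -0.20. Sdha (0.05 ± 0.08, adjusted p 0.656), Sdhb (-0.16 ± 0.08, 0.119) and Sdhd (-0.25 ± 0.11, 0.0685) were not called between the treatments, and Sdhb and Sdhd passed after centring.

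Cox7a1 was lower with the ligand than with the inhibitor, a log2 change of -0.42 ± 0.13 (adjusted p 0.0118), and the call was lost without ligand 2 (adjusted p 0.000636 to 0.0518 over the alternatives). In complex III Uqcr11, Uqcrfs1 and Uqcr10 were lower. Uqcr11, a small accessory subunit, had a log2 change of -0.25 ± 0.08 (adjusted p 0.0203), lost without inhibitor 2 or 3 or ligand 1 or 2 (adjusted p 0.00185 to 0.0858 over the alternatives). Uqcrfs1 had a log2 change of -0.21 ± 0.08 (adjusted p 0.0489) with overlapping groups, and lost its call without untreated 1, 2 or 3, inhibitor 2 or 3, ligand 1 or 2, with no filter, with no intensity trend, in the 2-group fit or with probe sets fitted singly (adjusted p 0.0116 to 0.187 over the alternatives). Uqcr10 had a log2 change of -0.19 ± 0.07 (adjusted p 0.0328), lost without inhibitor 2 or 3, ligand 1 or 2, under quantile normalization, with no intensity trend or in the 2-group fit (adjusted p 2.33e-05 to 0.134 over the alternatives). Cyc1 had 0.04 ± 0.09 (adjusted p 0.701). Atp5h was the 1 complex V member lower with the ligand, a log2 change of -0.25 ± 0.09 (adjusted p 0.0246), lost without inhibitor 2 or 3, ligand 3 or with the mean of probe sets (adjusted p 0.00947 to 0.116 over the alternatives).

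The 4 members higher with the ligand than with the inhibitor were Cox7a2l, Cox7c, Atp5g2 and Ndufb1, and none of them was called after centring. Cox7a2l had a log2 change of 0.37 ± 0.10 (adjusted p 0.00801), and 0.21 after centring (adjusted p 0.192). Cox7c had a log2 change of 0.26 ± 0.07 (adjusted p 0.00879) and also lost its call without inhibitor 2. Atp5g2 had a log2 change of 0.26 ± 0.09 (adjusted p 0.0265), lost without inhibitor 1, 2 or 3, ligand 2 or 3, under median centring or with no intensity trend (adjusted p 0.00061 to 0.517 over the alternatives). Ndufb1, a small membrane-arm subunit read by a dim probe set, had 149, 80.2 and 97.6 with the inhibitor and 176, 164 and 141 with the ligand, a log2 change of 0.53 ± 0.20 (adjusted p 0.0387). Its groups overlapped and the call was lost without inhibitor 2 or 3, ligand 1 or 2, under median centring, under quantile normalization, with no filter or with no intensity trend (adjusted p 0.00537 to 0.174 over the alternatives). Of the other isoforms none was called. Cox8c had -0.28 ± 0.12 (adjusted p 0.0699) and was lower after centring, and Cox4i1 had 0.14 ± 0.09 (adjusted p 0.211). Cox4i2, at background, had -0.46 ± 0.33 (adjusted p 0.268). The changes of Cox6a1, Cox6a2, Cox6b1, Cox7a2 and Cox8a lay between -0.14 and 0.11, with adjusted p from 0.238 to 0.954.

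Several members have further probe sets that do not follow the brightest one. The members have 159 probe sets above the filter, and 47 members have more than 1. When every probe set was fitted singly, 8 of the members called under the inhibitor had several probe sets, and another one was called the same way in 3 of them, Atp5g2, Cox7a2l and Uqcrc2. With the ligand this was so in 1 of 6, Uqcr10, and between the treatments in 6 of 9. A dimmer probe set was called where the brightest was not in 4, 8 and 11 members in the same order. The genes that follow were chosen after their values were seen. Ndufs8, an iron-sulfur subunit of complex I, had an inhibitor change of -0.12 ± 0.13 at its brightest probe set, but 4 of its 5 other probe sets were called lower, at -0.41 to -0.52. Uqcr10 had -0.07 ± 0.07 at its brightest probe set and rose at both others, by 0.36 ± 0.08 and 0.41 ± 0.07, while with the ligand all 3 were lower. Ndufs4, another complex I subunit, was called in both directions between the treatments, at -0.22 ± 0.08 for its brightest probe set and 0.76 ± 0.11 for one with an untreated signal of 201. These are changes of probe sets, and which transcript form each reads was not tested.

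Genes that build, feed and regulate the respiratory chain were counted beside the members, in lists taken from general knowledge. The 13 subunits encoded in mitochondrial DNA were not named in the array's annotation and are not analysed here, and neither are Cox7b and Atp5if1, the inhibitor of the ATP synthase. The mitochondrial ribosome translates those 13 subunits. Under the inhibitor the genes with symbols of its proteins, called ribosomal proteins here, fell in 40 of 76 tested genes and rose in 3 (31 and 1 after centring), with a median of -0.23. Assembly factors fell in 13 of 42 and rose in 5, and electron carriers with the ADP/ATP exchangers fell in 9 of 20 and rose in 3. Of the TCA cycle and pyruvate entry genes 9 of 18 fell and 2 rose, with a median of -0.28. Regulators of mitochondrial gene expression fell in 8 of 16 and rose in 1, and import genes and chaperones fell in 7 of 14. The background was 23.8% of genes lower and 21.1% higher. After centring the lists after the ribosomal proteins, in the order given, were lower in 11, 8, 7, 6 and 7 genes and higher in 5, 3, 2, 1 and 0, against 19.3% of all genes lower and 21.9% higher. With the ligand the TCA list fell in 9 of 18 genes, against 9.3% of all genes lower. The other lists fell in 13 of 76 ribosomal proteins, 8 of 42 assembly factors, 7 of 20 carriers, 4 of 16 regulators and 2 of 14 import genes, and 1 assembly factor, 1 carrier and 1 regulator rose. Of all genes 14.7% were higher. After centring the same lists in that order were lower in 10, 20, 17, 9, 5 and 4 genes, against 13.3% of all genes. In these lists 1 carrier was then higher, against 7.6% of all genes. Ligand against inhibitor, 31 of 76 ribosomal proteins were higher and 9 lower, but 15 higher and 23 lower after centring. Of the regulators 8 were higher and 4 lower (5 and 5 centred), of the import genes 6 and 2 (2 and 2), of the TCA list 7 and 6 (1 and 7), of the carriers 6 and 6 (4 and 8) and of the assembly factors 10 and 12 (4 and 18). Of all genes 32.4% were higher and 22.8% lower in this comparison, and 22% and 30.7% after centring.

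**Figure D5:**
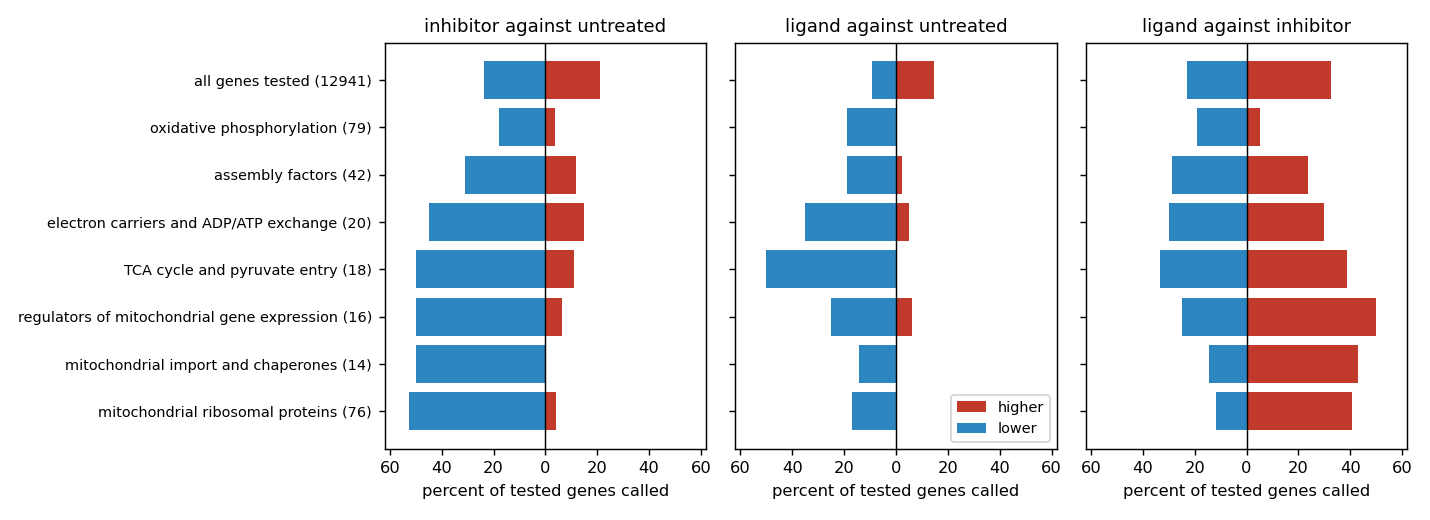
Percent of tested genes called higher (red, right) and lower (blue, left) on the deposited scale, for all genes, the 79 oxidative phosphorylation genes and 6 related lists in the 3 comparisons, with the number tested in brackets. Under the inhibitor the ribosomal proteins have the longest bar to the left beside the TCA, regulator and import lists, and the oxidative phosphorylation genes stay short of all genes on both sides.

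Some genes of these lists had larger changes than any subunit. Under the inhibitor Slc25a4, a heart and muscle form of the ADP/ATP exchanger, rose from a mean signal of 1619 to 4445, a log2 change of 1.46 ± 0.09 (adjusted p 7.3e-08). Coq8a, a kinase-like factor of coenzyme Q synthesis, fell from 975 to 258 (-1.84 ± 0.12), and Dhodh, which feeds electrons from pyrimidine synthesis into coenzyme Q, had -1.07 ± 0.08. Of the TCA list Idh2, the NADP-dependent isocitrate dehydrogenase, had -1.20 ± 0.07, with Idh3g at -0.48 ± 0.07 and Pdhb, a subunit of pyruvate dehydrogenase, at -0.41 ± 0.07. Among regulators the nuclear receptor Esrrg, an activator of respiratory genes, fell from 497 to 123 (-1.87 ± 0.11), the coactivator Pprc1 had -0.88 ± 0.08 and Myc -0.74 ± 0.08. The matrix proteases Lonp1 (-0.73 ± 0.07) and Clpp (-0.68 ± 0.09) and the chaperone Hspa9 (-0.50 ± 0.07) fell. So did the ribosomal proteins Mrps28 (-0.91 ± 0.08), Mrpl37 (-0.78 ± 0.07) and Mrpl23 (-0.66 ± 0.07). The assembly factors Ecsit (-0.72 ± 0.08) and Ndufaf6 (-0.68 ± 0.10), both of complex I, and Bcs1l (-0.52 ± 0.07), which inserts the Rieske protein Uqcrfs1 into complex III, fell too. The adjusted p of each was at most 0.000299.

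With the ligand Ppargc1a, the coactivator PGC-1alpha that drives respiratory gene programmes, fell from a mean signal of 731 to 382, a log2 change of -0.90 ± 0.10 (adjusted p 2.23e-05). The lipid-sensing receptor Ppara fell by 0.71 ± 0.12, and Myc rose by 0.33 ± 0.08 on the deposited scale and was not called after centring (adjusted p 0.137). Pdhb (-0.55 ± 0.07), Dlat, another subunit of pyruvate dehydrogenase (-0.44 ± 0.07), and Mpc1, of the mitochondrial pyruvate carrier (-0.47 ± 0.07), fell. Gpd2, the glycerol phosphate shuttle enzyme, had -0.47 ± 0.07 and the coenzyme Q enzyme Coq3 -0.35 ± 0.07, which was lost with the mean of probe sets. Slc25a4 rose by 0.55 ± 0.09. Cox10, which makes haem for complex IV, fell by 0.46 ± 0.08, Ecsit by 0.44 ± 0.08 and Ndufaf6 by 0.48 ± 0.10. Of the ribosomal protein list, Mrpl4 (-0.29 ± 0.07), Mrps28 (-0.32 ± 0.08) and Mrps36 (-0.41 ± 0.08), which is counted there by its symbol only, also fell. Hspa9 (-0.30 ± 0.07) lost its call with the mean of probe sets, and Lonp1 (-0.28 ± 0.07) without untreated 1 or ligand 2.

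Between the treatments Esrrg (1.64 ± 0.11), Pprc1 (1.07 ± 0.08) and Myc (1.07 ± 0.08) were higher with the ligand than with the inhibitor. Idh2 (1.06 ± 0.07), Coq8a (1.36 ± 0.12), Dhodh (0.96 ± 0.08), Clpp (0.59 ± 0.09), Lonp1 (0.45 ± 0.07), Mrpl37 (0.81 ± 0.07) and Mrpl19 (0.65 ± 0.07) were higher as well. The assembly factors Sdhaf1 (0.54 ± 0.07) of complex II, Bcs1l (0.48 ± 0.07) and Nubpl (0.47 ± 0.07) of complex I were higher. Timm44, of the import motor, had 0.31 ± 0.07 and was not called after centring (adjusted p 0.234). Slc25a4 (-0.91 ± 0.09), Dlat (-0.69 ± 0.07), Mpc1 (-0.75 ± 0.07) and Mrps36 (-0.86 ± 0.08) were lower. Every adjusted p in this paragraph other than that of Timm44 after centring was at most 0.00189.

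The epithelial cell markers moved with the same groups, and their part in the results was not tested. Of 12 intestinal stem cell markers 10 fell and 1 rose under the inhibitor, and 8 rose with the ligand (7 higher and 1 lower after centring). Their summed signal was 41332 to 47286 in untreated, 19804 to 22061 in inhibitor and 52252 to 63191 in ligand arrays, which do not overlap. Cell cycle genes fell in 12 of 13 under the inhibitor, and with the ligand 5 were higher and 1 lower (1 and 1 after centring). Their sums were 38851 to 43176 in untreated, 24335 to 26555 in inhibitor and 43710.4 to 48192 in ligand arrays. Absorptive enterocyte markers rose in 10 of 15 under the inhibitor and with the ligand fell in 8 of 15 (9 after centring) and rose in 1. Their sums were 87033 to 96104 in untreated, 103667 to 126835 in inhibitor and 67638 to 74264 in ligand arrays. Goblet cell markers fell in 6 of 10 under the inhibitor (5 after centring), and with the ligand 2 rose and 2 fell. Their sums were 35876 to 42788 in untreated, 27167 to 32265 in inhibitor and 34799.6 to 42479 in ligand arrays. Tuft cell markers fell in 3 of 6 under the inhibitor and rose in 4 with the ligand, with sums of 366 to 468 in untreated, 200.4 to 208 in inhibitor and 875 to 959 in ligand arrays. Enteroendocrine markers rose in 4 of 10 and fell in 2 under the inhibitor (4 and 1 after centring), and rose in 7 with the ligand (3 after centring). Their sums were 10377 to 12248 in untreated, 11966 to 12570.2 in inhibitor and 14634 to 15932 in ligand arrays. Of 5 Paneth cell markers 1 fell under the inhibitor and 1 rose with the ligand, with sums of 33342 to 42212 in untreated, 28253 to 34764 in inhibitor and 38269 to 55155 in ligand arrays. The stem cell receptor Lgr5 had -0.68 ± 0.08 and 0.74 ± 0.08 against untreated in inhibitor and ligand arrays, and Olfm4, another stem cell marker, -3.96 ± 0.12 and 0.18 ± 0.12 (the latter adjusted p 0.298). The proliferation marker Mki67 had -0.57 ± 0.08 and 0.01 ± 0.08 (the latter adjusted p 0.963), and the brush border peptidase Anpep 1.90 ± 0.09 and -0.43 ± 0.09.

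Markers of cells outside the epithelium were in part below the filter level on every array: 7 of 12 fibroblast and muscle markers, including Col1a1, Col3a1 and Myh11, 5 of 9 leukocyte markers, including Ptprc, and 5 of 6 endothelial markers, including Pecam1. The summed signal of the fibroblast and muscle markers was 399 to 432 in untreated, 319 to 375 in inhibitor and 475 to 509.7 in ligand arrays. That of the leukocyte markers was 1374 to 1561, 1057 to 1221 and 1564 to 2391 in the same order, and that of the endothelial markers was 79.4 to 132 over all 9 arrays. The called genes of these lists are named here after their values were seen. The intermediate filament gene Vim fell under the inhibitor (-1.11 ± 0.14), from a mean signal of 205 to 86.8. The lysozyme gene Lyz2, with a mean signal of 1212 in untreated arrays, fell under the inhibitor (-0.69 ± 0.14) and rose with the ligand (0.41 ± 0.14, adjusted p 0.0491, not called after centring). The myeloid markers Csf1r (0.92 ± 0.19) and Cd68 (0.66 ± 0.15) rose under the inhibitor, from mean signals of 66.2 and 64.4 to 140.3 and 112. Between the treatments Vim (1.34 ± 0.14) and Lyz2 (1.10 ± 0.14) were higher with the ligand, and Csf1r (-1.12 ± 0.19) and Cd68 (-0.74 ± 0.15) lower. The part of these genes in the results was not tested.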

How the data were processed

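Total RNA of small intestinal organoids was amplified, labelled with biotin and hybridised to 9 arrays, and signals were computed with MAS5 (version not stated), per the submitters' processing notes. Deposited values are intensities, 1 linear signal for each of 45101 probe sets per array. Their trimmed mean is the same on every array, so a difference in total RNA between cultures is not kept, and the number of arrays limits the precision.

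The platform annotation names the probe sets: 34945 have 1 symbol, 932 several and 9160 none, and 64 control probe sets were left out. Signals were turned into log2(signal + 16), which understates changes of dim genes, and 28.9% of values lay at or below 16. A probe set was kept where it exceeded the 40th percentile of the array on 3 or more arrays, and the brightest one stood for its gene. All 82 members were matched to RefSeq genes by identifier.

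Groups were taken from the treatment labels. The limma package (version 3.58.1, R 4.3.3) fitted 1 mean per group over the 9 arrays, with an intensity trend, 6 residual degrees of freedom, and 2-sided p-values, which were adjusted by Benjamini-Hochberg over the 12941 tested genes and called at 0.05. The fit was run on simulated data with independent noise and few changed genes. The data here differ in both, so that run does not bear on the calls above. The members and lists were chosen with earlier results of these data known. The text names, per comparison and complex, up to 3 called members in each direction with the largest change, a fixed set (the Sdh genes, Cyc1, complex IV isoforms, Cox7a2l, Ndufa4, Ndufab1), up to 3 called genes with the smallest p per pathway list, and 4 cell markers. Genes named after their values were seen are marked so. Alternatives were other scalings, offsets, filters, probe set choices and fits, and leaving out each array. Fitting every probe set singly was chosen after seeing the data.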

Additional observations from a re-analysis of the deposited data

How the results depend on the processing

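The number of genes called stayed within 1.5 times its value under all 21 alternatives in the 3 comparisons. Under the inhibitor the 14 lower members were 2 under array median centring, 22 under quantile normalization, 8 with no intensity trend and 3 to 19 when 1 array was left out, and the 3 higher members were 6 under quantile normalization. With the ligand the 15 lower members were 6 to 32 when 1 array was left out. Ligand against inhibitor, the 4 higher members were 0 under centring, 7 under quantile normalization, 2 with no intensity trend and 1 to 4 when 1 array was left out, and the 15 lower members were 9 to 21. In these cases the cause was not tested. No named result reversed: of the values of named genes under the alternatives 2863 kept their side of the threshold, 123 lost the call and 32 gained it. Calls that held in all 21 alternatives were those of Cox6b2, Cox7c, Ndufs7 and Ndufv3 under the inhibitor, of Cox7a1, Ndufa6, Ndufs5 and Sdhb with the ligand, and of Cox6b2, Ndufb10, Ndufc1, Ndufs5, Ndufv3 and Sdhc between the treatments.

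With the replicate number as a block, 3 members were higher and 15 lower under the inhibitor, 0 and 16 with the ligand, and 4 and 14 between the treatments. Over all genes the deviations of same-numbered arrays correlated at -0.078 to 0.083. Over the 79 members, which move together from array to array, they correlated at -0.397 to 0.684, and at 0.284 to 0.684 between untreated and ligand arrays. An array correlated best with its own number in 6 of 18 cases over all genes and in 11 of 18 over the members. The main fit did not use the numbers as pairs, a choice that rests on the values over all genes. Whether the members' values reflect pairing was not tested, and the blocked counts stand beside the others. The median within-group SD of the members was 0.098 on the log2 scale, against median change sizes of 0.12, 0.17 and 0.11 in the 3 comparisons, so a member that was not called may still differ.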
